A study of Homo sapiens with 6 samples.

Results

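The voltage-gated calcium channel subunit genes expressed in T47D were followed in 6 RNA libraries: CACNG4, which the series names as acting downstream of CUEDC1, and 9 others. The 10 are CACNA1D, CACNA1H and CACNA1I, which encode pore-forming alpha1 subunits, CACNB1, CACNB3 and CACNB4 (beta), CACNA2D1 and CACNA2D2 (alpha2delta), and CACNG4 and CACNG8 (gamma). They were picked by symbol from a table of 17758 genes as the family members with a detectable level in this line, so their levels are a description. The human family has 26 such genes, of which 24 were in the table; CACNG3 and CACNG7 were not analysed here. T47D is an established oestrogen receptor-positive line from a human breast ductal carcinoma. The control cells stably carried a lentiviral non-targeting short hairpin RNA (shNC, 3 libraries) and the knockdown cells one directed at CUEDC1 (shCUEDC1, 3 libraries), with no other treatment named. The series calls the 3 libraries of a group biological replicates, but neither the number of hairpin sequences nor whether the replicates were infected separately is stated. The hairpin's own effect and the loss of CUEDC1 therefore cannot be told apart, and a p-value here reflects only how much libraries of one group vary.

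A voltage-gated calcium channel opens when the membrane depolarises and lets calcium into the cell. The alpha1 subunit is the pore and voltage sensor and sets the channel type. In L-type channels a cytoplasmic beta subunit binds the alpha1 subunit, carries it to the cell surface and tunes its gating, and an alpha2delta subunit, a largely extracellular protein that binds gabapentin, raises the number of channels at the surface. T-type channels open near the resting potential and pass current without these partners. The gamma subunits are claudin-like proteins with several membrane spans. CACNG4 and CACNG8 belong to the branch known as transmembrane AMPA receptor regulatory proteins, which in neurons escort glutamate receptors.

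Each library held between 18924327 and 19731609 estimated reads. CUEDC1 was at 79.4, 80.5 and 70.6 TPM (the deposited transcript level, scaled to gene length and library) in shNC 1, 2 and 3 and at 23.2, 24.4 and 22.8 TPM in shCUEDC1 1, 2 and 3, so the libraries matched their labels. All 11 luminal markers listed for the line, ESR1, GATA3 and FOXA1 among them, were above 1 TPM in each library. Of the 11, 2 rose at an edgeR adjusted p below 0.05, TFF1 and SPDEF, where 5.19% of all tested genes rose. The basal keratins KRT5 and KRT14 stayed below 1 TPM, but the basal keratin KRT17 was at 13.65 to 32.1 TPM. TP63 and EGFR were also above 1 TPM in each library. The 5 basal markers summed to 21.7 to 44.6 TPM in shNC, lowest in shNC 3, and 25.3 to 28.8 TPM in shCUEDC1. Of 10 neuronal markers 7 were in the table, and 4 of these stayed below 1 TPM in all libraries, SNAP25 and RBFOX3 included. The summed neuronal level, mostly SYT1 and TUBB3, was 22.5 to 24.9 TPM in shNC and 18.7 to 21.4 TPM in shCUEDC1, and TUBB3 fell (log2 change -0.60, edgeR adjusted p = 0.0232). The 10 stromal and immune markers summed to 14.1 to 16.2 TPM in shNC and 17.6 to 21.75 TPM in shCUEDC1, with COL1A1 higher. The 8 muscle markers in the table were each below 1 TPM and summed to between 1.58 and 2.02 TPM. Among them RYR1, the intracellular calcium release channel of skeletal muscle, was lower in shCUEDC1 at 0.0533 ± 0.0153 against 0.147 ± 0.0306 TPM (SD, n = 3 each, log2 change -1.46, edgeR adjusted p = 0.0255), a call that DESeq2 did not make. Over all tested genes 5.19% were called higher and 4.77% lower, and single calls in lists this short say little about a list. The part of these markers in the results below was not tested. The library shNC 3 departed from shNC 1 and 2 for several subunit genes, and subunit gene changes whose call or sign rests on it are given with and without it.

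Promoter sequence was available from RefSeq (GRCh38.p14) for 7 of the 10 genes, as 300 bases reaching from 250 before to 50 after the start that the RefSeq table uses. That start can differ from the GENCODE v29 gene ends given below: the CACNB4 window lies inside the GENCODE gene, the CACNA2D1 window just upstream of it, and the CACNA1D window far inside it. The promoters of CACNB4 and CACNA2D1 are shown because these are the genes with such an entry that passed the test for change, one upward and one downward. Both are written 5′ to 3′ on the strand of the gene, and capitals mark the GC box (GGGCGG on either strand). The CACNB4 promoter lies at chr2:152099118-152099417 on the minus strand and the CACNA2D1 promoter at chr7:82443907-82444206 on the minus strand.
CACNB4: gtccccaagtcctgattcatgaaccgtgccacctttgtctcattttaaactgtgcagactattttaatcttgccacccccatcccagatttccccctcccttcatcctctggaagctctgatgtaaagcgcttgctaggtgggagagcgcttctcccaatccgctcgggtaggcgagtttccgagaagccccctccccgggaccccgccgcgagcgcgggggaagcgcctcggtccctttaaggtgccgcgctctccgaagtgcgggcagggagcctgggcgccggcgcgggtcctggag
CACNA2D1: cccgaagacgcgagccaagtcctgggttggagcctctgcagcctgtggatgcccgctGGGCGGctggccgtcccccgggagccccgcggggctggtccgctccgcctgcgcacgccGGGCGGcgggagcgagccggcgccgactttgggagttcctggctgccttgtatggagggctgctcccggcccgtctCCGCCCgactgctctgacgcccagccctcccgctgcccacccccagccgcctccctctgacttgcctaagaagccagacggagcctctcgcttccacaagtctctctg
The CACNB4 promoter held no GC box and a GC content of 62%, and the CACNA2D1 promoter held 3 GC boxes at 72.3% GC. Over all 27305 promoters of this length the median GC content was 58.3%, and 44.6% held at least 1 GC box. A GC box was found in 5 of the 7 subunit promoters, with 5 in that of CACNA1D and 4 in that of CACNB1. The oestrogen response half-site GGTCA was found in 2 of 7, CACNA1D and CACNB3, and in 37.7% of all promoters. The full palindromic oestrogen response element, which contains the half-site on both strands, the cAMP response element TGACGTCA and the TATA box TATAAA were found in 0 of 7, against 0.0659%, 1.98% and 12.0% of all promoters. All motifs were searched on both strands, and a match or its absence describes these letters only.

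By TPM, CACNG4 was the most abundant of the 10 in every library, followed by CACNB3. In shNC the mean order was CACNG4 at 87.9 ± 5.52, CACNB3 at 27.7 ± 4.02, CACNA1H at 6.96 ± 0.419, CACNB4 at 6.82 ± 0.746, CACNA1D at 5.88 ± 1.37, CACNB1 at 5.60 ± 0.0929, CACNA2D1 at 3.78 ± 0.842, CACNA2D2 at 1.51 ± 0.380, CACNA1I at 0.620 ± 0.157 and CACNG8 at 0.317 ± 0.0611 TPM (SD, n = 3). In shNC the libraries of CACNA1D overlapped those of CACNA1H, CACNB4 and CACNB1, and CACNA1H overlapped CACNB4, so their order is not resolved beyond CACNB1 lying below CACNA1H and CACNB4. In shCUEDC1 none of the 10 overlapped its neighbour in the order, and CACNB4 came next after CACNB3 at 13.4 ± 0.166 TPM, above CACNA1H at 8.82 ± 0.667 and CACNA1D at 6.59 ± 0.567 TPM. The family as a whole summed to 149 ± 4.04 TPM in shNC and 127 ± 2.36 TPM in shCUEDC1 (SD, n = 3 each, exact permutation p = 0.1, two-sided, the smallest that 3 against 3 libraries allow). Gamma genes made up 59.9% ± 2.63 of that sum in shNC and 48.0% ± 0.162 in shCUEDC1, and beta genes 27.1% ± 2.66 and 36.3% ± 0.821 (SD, n = 3 each).

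**Figure D1:**
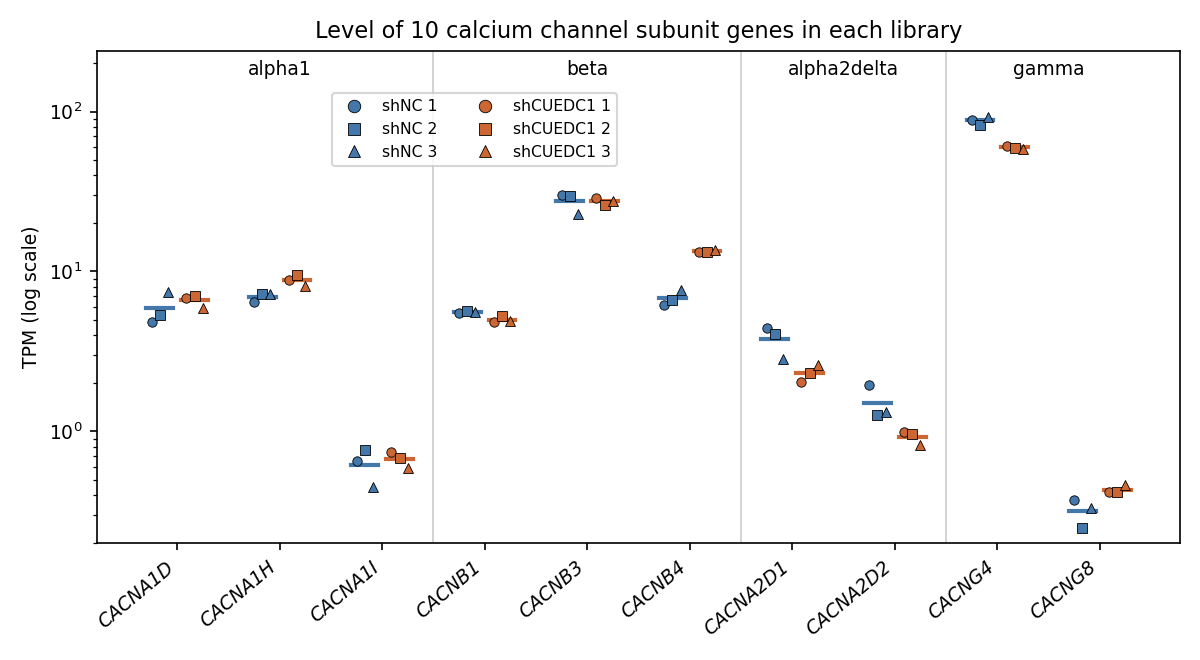
Level of the 10 subunit genes in each library, in TPM on a log axis, ordered by subunit class, with 1 symbol per library and a bar at each group mean. CACNG4 lies highest, its shNC libraries between 81.95 and 92.8 TPM above its shCUEDC1 libraries between 58.1 and 61.3 TPM, and CACNB4 shows the reverse.

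The lowest of the 10, CACNG8, rested on 21.7 to 38.9 estimated reads per library. Just outside the list, CACNG1, a gamma subunit of skeletal muscle channels, had the highest mean TPM (0.25 to 1.24 TPM) on only 3 to 14 reads, and CACNA1B, the N-type pore gene, had 13.96 to 21.9 reads. The other pore genes of L-type channels were nearly silent: CACNA1C had 0 to 4 reads, CACNA1S 0 to 1 and CACNA1F 3 to 16. CACNA1G, the remaining T-type gene, had 2 to 9 reads. Of the 14 family genes in the table outside the 10, 3 had enough reads to be tested, CACNA1B, CACNA1F and CACNB2. None of these was called (edgeR adjusted p = 0.501, 0.324 and 0.875). CACNA1F, with 8, 3 and 14 reads in shNC, had an adjusted p of 0.0327 when shNC 3 was left out, a fit in which 28.1% of all tested genes were called.

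Between shCUEDC1 and shNC, 4 of the 10 genes changed at an adjusted p below 0.05 (edgeR quasi-likelihood, Benjamini-Hochberg over 13824 tested genes), where 9.96% of all tested genes did. CACNB4 and CACNA1H rose, where 5.19% of tested genes did, and CACNG4 and CACNA2D1 fell, where 4.77% did. These values are from the contrast known when the genes were chosen, and nothing further is read from the shares. All 10 passed the filter on low counts. Their median log2 change was 0.09, against -0.004 over all genes tested. In 7 of the 10 genes, 3 higher and 4 lower in shCUEDC1, every library of one group lay above every library of the other, as in 31.3% of all tested genes. For each of those 7 the exact two-sided permutation p was 0.1, the smallest possible. All of this is at the level of RNA in bulk libraries, where fewer cells expressing a gene and less RNA per cell cannot be told apart.

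**Figure D2:**
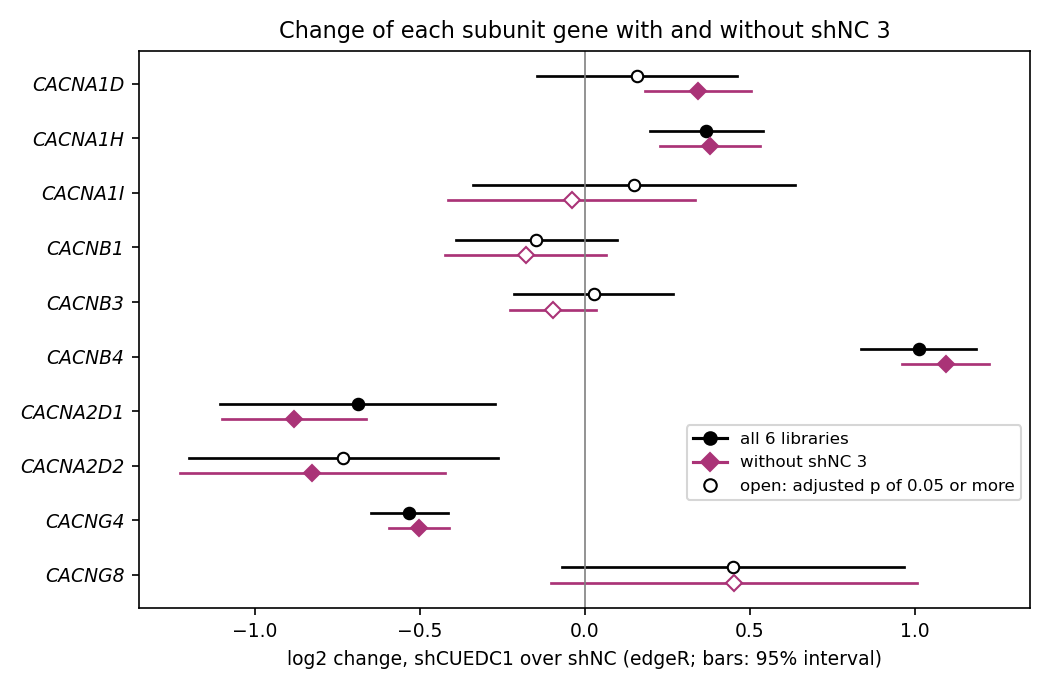
Log2 change of each subunit gene, shCUEDC1 over shNC, by edgeR with 95% intervals, with all 6 libraries (circles) and without shNC 3 (diamonds); filled symbols have an adjusted p below 0.05. CACNB4 lies to the right, at 1.01 with all libraries and 1.09 without shNC 3. CACNG4 lies to the left, at -0.53 with all libraries and -0.50 without shNC 3. CACNA1D and CACNA2D2 are filled only without shNC 3.

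Among the gamma subunits, CACNG4 (Entrez 27092, chromosome 17 from 66964910 to 67033398, plus strand, GENCODE v29 on GRCh38) was at 89.1, 81.95 and 92.8 TPM in shNC 1, 2 and 3. It was at 61.3, 59.5 and 58.1 TPM in shCUEDC1 1, 2 and 3. The lowest control library was thus above the highest knockdown library, on 1995 to 3035 estimated reads. CACNG4 thus fell by 30.8%, with a 95% interval of -36.2% to -25.0%. On the log2 scale this is -0.53 with an SE of 0.0521 (edgeR adjusted p = 3.86e-04). It was called in each of the 14 other fits, with a log2 change between -0.57 and -0.50. Up to 185 bases of a CACNG4 exon overlap an annotated antisense gene on the opposite strand, AC005544.2, for which no value was used here. The counting is not stated to use strand. The series selected CACNG4 on these same samples, so its fall is not independent evidence, and the interval does not reach the 2-fold change that the series set for its gene list. CACNG8 (chromosome 19), the other member of the AMPA receptor branch, was at 0.37, 0.25 and 0.33 TPM in shNC and 0.42, 0.42 and 0.46 TPM in shCUEDC1. All its shCUEDC1 libraries were above all its shNC libraries, but the log2 difference of 0.45 (95% interval -0.07 to 0.97) was not called (edgeR adjusted p = 0.263). CACNG4 made up 98.5% ± 0.611 of the gamma TPM in shNC and 97.7% ± 0.573 in shCUEDC1 (SD, n = 3 each), so nearly all gamma transcript was CACNG4 in both groups. The difference of -0.768 percentage points had an exact permutation p of 0.3 and lay without overlap (p = 0.1) when counts were used in place of TPM.

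CACNG4 sits in a run of gamma genes on chromosome 17, with CACNG5 and CACNG1 as its flanking family genes, and CUEDC1 lies on the same chromosome 9.01 megabases away. CACNG5 had 3.63 to 12.5 reads per library and CACNG1 3 to 14, too few to test. The 3 nearest tested genes on each side were AXIN2, CEP112 and PRKCA before it and HELZ, PSMD12 and PITPNC1 after it. None of these 6 was called by edgeR, with adjusted p between 0.198 for PITPNC1 and 0.991 for CEP112, and none was called in any of the 14 other fits. The groups did not overlap for PSMD12 and PITPNC1, both lower in shCUEDC1, with log2 differences of -0.08 and -0.19. Over all tested genes the groups did not overlap in 31.3%, and 15.6% were lower in shCUEDC1 without overlap. With so few neighbours, no shared fall with CACNG4 is read from PSMD12 and PITPNC1. PRKCA, a calcium-activated protein kinase C and the nearest tested gene before CACNG4 at 154 kb, differed by -0.13 (95% interval -0.37 to 0.11). HELZ, an RNA helicase 37.0 kb beyond CACNG4, differed by -0.11 (95% interval -0.35 to 0.14). Without shNC 3 the HELZ difference was 0.03 (edgeR adjusted p = 0.780), so its sign rests on that library.

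**Figure D3:**
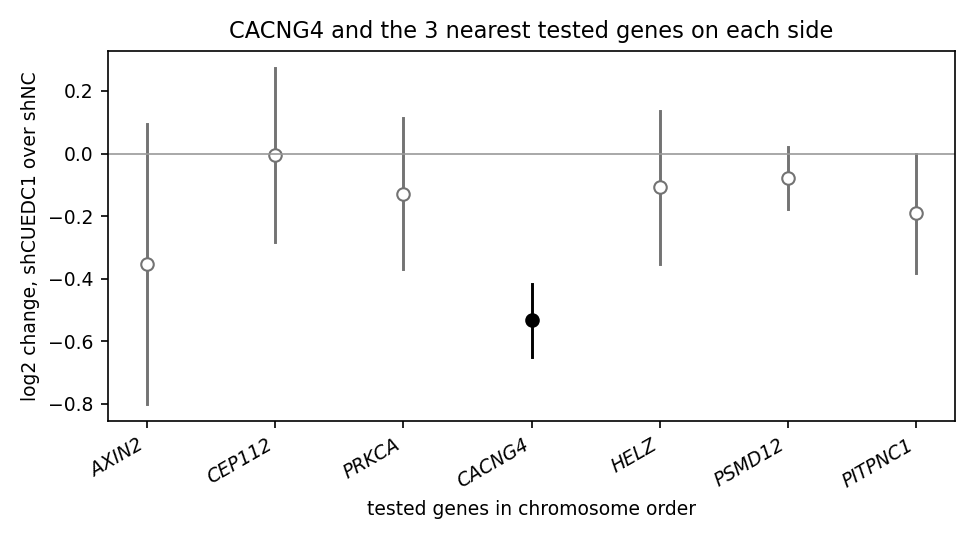
Log2 change, shCUEDC1 over shNC, with 95% intervals from edgeR for CACNG4 and the 3 nearest tested genes on each side in chromosome order; filled is an adjusted p below 0.05. CACNG4 at -0.53 is the only filled point, and the other 6 lie between -0.35 and 0.

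Among the beta subunits, CACNB4 (Entrez 785, chromosome 2 from 151832768 to 152099475, minus strand, GENCODE v29 on GRCh38) was at 6.18, 6.64 and 7.64 TPM in shNC 1, 2 and 3. It was at 13.2, 13.3 and 13.55 TPM in shCUEDC1 1, 2 and 3. The groups were far apart, and the knockdown libraries were closer to each other than the controls were. CACNB4 rose 2.02-fold (log2 change 1.01, SE 0.0780, 95% interval 0.84 to 1.19, edgeR adjusted p = 1.12e-04). It was the only one of the 10 past the 2-fold criterion of the series, which 1.17% of tested genes passed together with the test. The interval spans that criterion, and the log2 change was 0.95 without shNC 1 and 0.89 by limma-trend on log2(FPKM + 0.5). CACNB4 was called in each of the 14 other fits. Up to 559 bases of a CACNB4 exon also belong to an overlapping annotated gene on the same strand, AC068547.1, for which no value was used here.

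CACNB3, the main beta subunit of these cells by TPM, was at 30.2, 29.8 and 23.0 TPM in shNC and 28.7, 26.2 and 27.8 TPM in shCUEDC1. The groups overlapped because shNC 3 lay below every other library. Its log2 difference was 0.03, with a 95% interval of -0.22 to 0.27 (edgeR adjusted p = 0.915). Without shNC 3 it was -0.10 (adjusted p = 0.278), so even its sign rests on that library. CACNB1, a beta subunit best known from skeletal muscle, was at 5.52, 5.70 and 5.57 TPM in shNC and 4.84, 5.28 and 4.87 TPM in shCUEDC1. Its groups did not overlap, but the difference of -0.15 (95% interval -0.39 to 0.10) was not called (edgeR adjusted p = 0.454). Up to 300 bases of a CACNB1 exon overlap the antisense gene AC004408.1 on the opposite strand, for which no value was used here. CACNB2, the remaining beta gene, had 10.8 to 19.7 reads per library and differed by -0.12 (95% interval -0.89 to 0.66).

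The make-up of the beta class followed these levels. CACNB4 supplied 14.7%, 15.7% and 20.9% of the beta TPM in shNC 1, 2 and 3 and 28.2%, 29.5% and 29.2% in shCUEDC1 1, 2 and 3, means of 17.1% ± 3.34 and 28.97% ± 0.687 (SD, n = 3 each, exact permutation p = 0.1). The share of CACNB3 was 68.3% ± 4.68 in shNC and 59.7% ± 1.49 in shCUEDC1, and that of CACNB1 was 13.9% ± 1.14 and 10.8% ± 0.769 (SD, n = 3 each). None of these 3 shares overlapped between groups. The shares are parts of 1 sum, so a higher CACNB4 share lowers the others and the 3 are not separate results. The level of CACNB3 was 27.7 ± 4.02 TPM in shNC and 27.5 ± 1.27 TPM in shCUEDC1 (SD, n = 3 each). The ratio of CACNB4 to CACNB3, which does not depend on library scaling, was 0.205, 0.223 and 0.332 in shNC 1, 2 and 3 and 0.462, 0.508 and 0.488 in shCUEDC1. In shNC 3 it was between the other control libraries and the knockdown libraries. The summed beta level was 40.3 ± 3.26 TPM in shNC and 46.1 ± 0.987 TPM in shCUEDC1 (SD, n = 3 each), again without overlap.

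**Figure D4:**
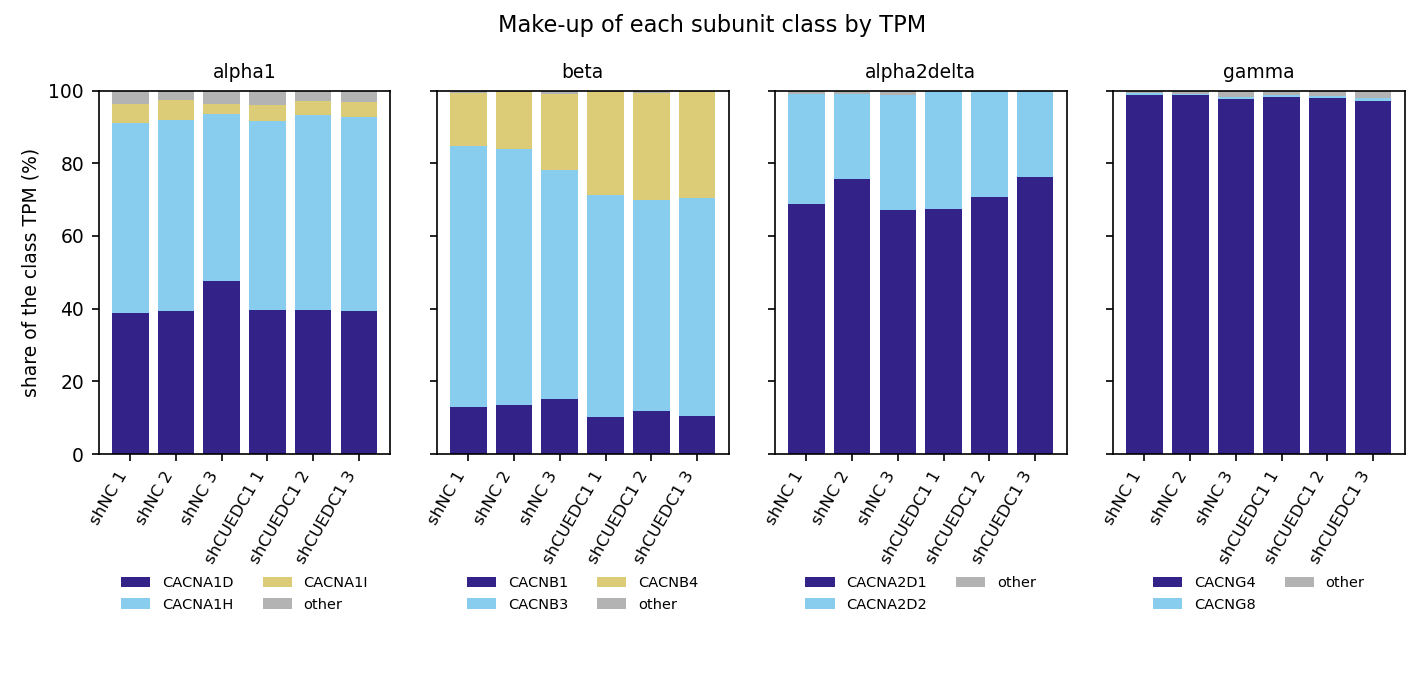
Share of the TPM of each subunit class supplied by each gene, in percent of the class sum, 1 bar per library; other stands for the class genes outside the 10. CACNB4 takes 14.7% to 20.9% of the beta bars in shNC and 28.2% to 29.5% in shCUEDC1, and CACNG4 takes at least 97.0% of every gamma bar.

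Among the pore genes, CACNA1H, a T-type channel, was at 6.48, 7.22 and 7.19 TPM in shNC 1, 2 and 3 and 8.88, 9.46 and 8.13 TPM in shCUEDC1 1, 2 and 3. All knockdown libraries were above all control libraries, with shCUEDC1 3 the nearest to them. CACNA1H rose by 29.1%, with a 95% interval of 14.7% to 45.3%. Its log2 change was 0.37 with an SE of 0.0763 (edgeR adjusted p = 0.0152). Its call was lost without shNC 1 (adjusted p = 0.0703), without shCUEDC1 1 (0.0725) or without shCUEDC1 2 (0.0920), and by limma-trend on log2(FPKM + 0.5) or log2(FPKM + 0.1) (0.0553 and 0.0557), with a log2 change between 0.31 and 0.42 in all fits. TPSG1, a tryptase gene on the opposite strand, shares up to 122 bases with an exon of CACNA1H, and was at 0.730 ± 0.0755 and 0.927 ± 0.241 TPM.

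CACNA1D, an L-type pore that opens at more negative voltages than other L-type channels, was at 4.84, 5.37 and 7.44 TPM in shNC and 6.79, 7.03 and 5.95 TPM in shCUEDC1. The control library shNC 3 held the highest value of all 6, and without it the groups did not overlap. CACNA1D differed by 0.16 with all libraries (95% interval -0.14 to 0.46, edgeR adjusted p = 0.515) and by 0.34 without shNC 3 (adjusted p = 0.00110), a fit in which 28.1% of all tested genes were called. Up to 1399 bases of a CACNA1D exon overlap the choline dehydrogenase gene CHDH on the opposite strand, and the counting is not stated to use strand, so reads of this pair may not be fully separated. CHDH was at 13.4 ± 0.575 TPM in shNC and 12.0 ± 1.06 TPM in shCUEDC1, opposite in direction to CACNA1D and not called (edgeR adjusted p = 0.278). CACNA1I, another T-type gene, was at 0.65, 0.76 and 0.45 TPM in shNC and 0.74, 0.68 and 0.59 TPM in shCUEDC1. Its groups overlapped, and its log2 difference of 0.15 (95% interval -0.34 to 0.64, edgeR adjusted p = 0.728) changed sign without shNC 3.

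Within the alpha1 class, CACNA1H supplied 50.3% ± 3.75 of the alpha1 TPM in shNC and 53.0% ± 0.903 in shCUEDC1 (SD, n = 3 each, exact permutation p = 0.3), and CACNA1D 41.9% ± 4.89 and 39.6% ± 0.290. The CACNA1H difference was 2.74 percentage points with all libraries and 0.585 without shNC 3. By counts in place of TPM the CACNA1H share was 45.5% ± 3.46 and 48.9% ± 0.626 (SD, n = 3 each), without overlap (exact permutation p = 0.1). The ratio of CACNA1H to CACNA1D was 1.34, 1.34 and 0.966 in shNC 1, 2 and 3 and between 1.31 and 1.37 in shCUEDC1, so shNC 3 was the single library in which the L-type gene exceeded the T-type gene. The summed alpha1 level was 13.9 ± 1.62 TPM in shNC and 16.7 ± 1.32 TPM in shCUEDC1, with overlapping groups (exact permutation p = 0.2). By library it was 12.4, 13.7 and 15.65 TPM in shNC 1, 2 and 3 and 17.1, 17.7 and 15.2 TPM in shCUEDC1 1, 2 and 3, so the overlap came from shNC 3 alone and the groups did not overlap without it.

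The libraries of both expressed alpha2delta genes were all lower in shCUEDC1 than in shNC, although 1 of these genes passed the test and the other did not. CACNA2D1, the main gabapentin-binding subunit (chromosome 7), was at 4.44, 4.06 and 2.83 TPM in shNC 1, 2 and 3 and 2.05, 2.32 and 2.62 TPM in shCUEDC1 1, 2 and 3. The groups did not overlap, but shNC 3 lay nearer to the knockdown libraries than to shNC 1 and 2. CACNA2D1 fell by 37.9%, with a 95% interval of -53.5% to -17.1%. Its log2 change of -0.69 (SE 0.185) had an edgeR adjusted p of 0.0469, just under the threshold. That call was lost in 9 of the 14 other fits, with an adjusted p up to 0.179 without shCUEDC1 1, while without shNC 3 the log2 change was -0.88. CACNA2D2 (chromosome 3), also gabapentin-binding, was at 1.95, 1.26 and 1.33 TPM in shNC and 0.99, 0.96 and 0.82 TPM in shCUEDC1. Its groups did not overlap either, and its log2 difference of -0.73 (95% interval -1.20 to -0.26) had an edgeR adjusted p of 0.0549, just over the threshold. CACNA2D2 was called only without shNC 3 (-0.83, adjusted p = 0.00173), a fit in which 28.1% of all tested genes were called. CYB561D2, which shares up to 150 bases with a CACNA2D2 exon on the opposite strand, was at 31.0 ± 2.48 TPM in shNC and 31.1 ± 3.01 TPM in shCUEDC1.

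Within the class, CACNA2D1 supplied 70.6% ± 4.45 of the alpha2delta TPM in shNC and 71.4% ± 4.41 in shCUEDC1 (SD, n = 3 each, exact permutation p = 0.7), with overlapping groups. The summed alpha2delta level was 5.34 ± 1.12 TPM in shNC and 3.25 ± 0.201 TPM in shCUEDC1, without overlap (exact permutation p = 0.1). CACNA2D3 had 2, 1 and 1 reads in shNC and 0 in each shCUEDC1 library, and CACNA2D4 0 or 1 read per library, both too few for a fold change.

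The partner lists below are read against the shares over all tested genes, 9.96% called in either direction (5.19% higher, 4.77% lower), and a median log2 difference of -0.004. With 5 to 24 tested genes a list, counts of 0 or 1 say little about a list as such. Counts at an unadjusted p below 0.05 have no such share beside them, so neither an excess nor a lack is read from them. Of 15 tested channel modulators 1 rose and 0 fell, 3 had an unadjusted p below 0.05, and the median log2 difference was 0.0069. The gene that rose, AKAP5, which anchors protein kinase A and calcineurin at L-type channels, was at 1.92, 1.83 and 2.28 TPM in shNC and 3.05, 3.10 and 2.67 TPM in shCUEDC1 (log2 change 0.58, SE 0.120, edgeR adjusted p = 0.0154). Its call was lost without shNC 1 or any single shCUEDC1 library and by limma-trend on log2(FPKM + 0.1), with an adjusted p of up to 0.0900 (without shCUEDC1 2). Of 5 tested proteins that bind alpha2delta subunits 1 fell and 0 rose, 4 had an unadjusted p below 0.05, and the median log2 difference was 0.13. PRNP, the prion protein, went from 84.9 ± 1.47 to 63.3 ± 0.991 TPM (SD, n = 3 each, log2 change -0.39, edgeR adjusted p = 0.00198), and was called in all 14 other fits.

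Of 9 tested genes for AMPA receptor subunits and other partners of that receptor, 0 were called by edgeR, DESeq2 or limma-voom. Those fits called 9.96%, 10.6% and 9.84% of all tested genes. Of the 9, 1 had an unadjusted p below 0.05, and the median log2 difference was 0.06. The AMPA receptor pore genes were at or near 0: GRIA2, singled out after its values were seen, was the highest at 0.620 ± 0.0346 TPM in shNC and 0.347 ± 0.168 TPM in shCUEDC1, against 87.9 and 59.7 TPM for CACNG4. The most abundant of the list were DLG1, a membrane scaffold, at 107 ± 17.4 and 112 ± 9.24 TPM, and CNIH2, a cornichon export protein, at 15.4 ± 3.32 and 15.8 ± 1.59 TPM (SD, n = 3 each). CNIH2 differed by 0.06 with all libraries and by -0.10 without shNC 3 (edgeR adjusted p = 0.863 and 0.530). DLG1 differed by 0.11 with all libraries (edgeR adjusted p = 0.543). It was called only without shNC 3 (log2 difference 0.24, edgeR adjusted p = 3.07e-04), a fit in which 28.1% of all tested genes were called.

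Of 16 tested genes listed under other routes of calcium entry 1 rose and 0 fell, near the shares of 5.19% and 4.77% over all tested genes. Of the 16, 3 had an unadjusted p below 0.05, and the median log2 difference was -0.04. The gene that rose, TRPM4, is a calcium-activated channel for monovalent ions and not itself a route of calcium entry. It went from 26.2 ± 1.04 to 31.3 ± 1.24 TPM (SD, n = 3 each, log2 change 0.29, edgeR adjusted p = 0.0183), a call lost without any single shCUEDC1 library (adjusted p up to 0.107, without shCUEDC1 2). Of 24 tested genes of calcium-responsive transcription 1 fell and 0 rose. By limma-trend on log2(FPKM + 0.5) 2 of the 24 were called, where 8.26% of all tested genes were. Of the 24, 8 had an unadjusted p below 0.05, and the median log2 difference was -0.13. No share over all tested genes is given at that threshold, so the 8 cannot be read as an excess. NFATC2, a transcription factor activated by calcineurin, was at 3.05, 3.00 and 3.18 TPM in shNC and 1.74, 1.77 and 1.70 TPM in shCUEDC1, with no overlap. Its log2 change was -0.80 (SE 0.104, edgeR adjusted p = 0.00168), and it was called in all 14 other fits.

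The genes most like CACNG4 over the 6 libraries, by Euclidean distance between centred log2 CPM (library-scaled counts) among 12626 tested genes with a mean of at least 1 TPM, were EXT1, MATN2, BTBD6, CMTM4 and SUMF1. Their distances were 0.0682 to 0.106, and their log2 changes lay between -0.57 for EXT1 and -0.47 for BTBD6. EXT1, a heparan sulfate polymerase, went from 21.3 ± 1.23 to 14.02 ± 0.313 TPM. Those most like CACNB4 were NAALADL2, FN1, ARMCX1, GNG11 and SEPTIN8, at distances of 0.159 to 0.222. FN1, fibronectin, went from 16.6 ± 2.71 to 29.5 ± 0.185 TPM and GNG11, a G protein gamma subunit, from 67.0 ± 14.9 to 135 ± 1.41 TPM (SD, n = 3 each). These lists follow from the group difference and the few libraries, and carry no test.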

How the data were processed

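Poly(A)-selected RNA was fragmented, copied with random primers and made into circularised libraries, per the labels' protocols. The submitters' processing notes name GRCh38 with patch 13 as the genome build. Which aligner and counter were run, and whether strand was used, is not given in the sources used here. In 1 table the authors deposited estimated counts per gene, which are fractional and not normalised, FPKM and TPM, which they scaled to gene length and library, and a normalised signal per library, which is the estimated count rounded up and divided by 1 factor. That signal and the 8 columns of group means were not used. The series states that its own gene list came from DESeq2.

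Estimated counts were rounded, filtered with filterByExpr (minimum count 10), normalised by TMM and compared with edgeR 4.0.16 under R 4.3.3 (robust quasi-likelihood test). Benjamini-Hochberg adjustment covered all tested genes. SE and intervals derive from the quasi-likelihood F statistic. Levels and shares use the deposited TPM, with exact permutation tests over libraries. Positions and exon overlaps are from GENCODE v29, and gene order from RefSeq, to which 17699 of 17758 genes matched by Entrez identifier. The genes, the lists and the naming rule (all 10 genes, the tested or highest family genes outside them, up to 4 called genes of each partner list or else its 2 most abundant, 3 neighbours on each side of CACNG4, and 5 genes nearest in pattern to CACNG4 and CACNB4) were chosen with earlier results of these data known. Alternatives were RLE factors, no filter beyond 1 count, at least 1 CPM in 3 libraries, DESeq2 1.42.0, limma-voom and limma-trend (limma 3.58.1) on log2(FPKM + 0.5) or log2(FPKM + 0.1), a block for the replicate number, each library left out, and, for shares, other denominators and unscaled counts. Intervals cover the spread between these libraries.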

Additional observations from a re-analysis of the deposited data

How the results depend on the processing

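CACNB4 and CACNG4 kept their direction and call in all 14 alternatives. With all libraries, 4 of the 10 genes were called, where 9.96% of all tested genes were. The count was also 4 with RLE factors (10% of all tested genes), without a low-count filter (7.97%), with the CPM filter (10.5%) and by DESeq2 (10.6%). It was 3 by limma-voom (1360 genes in all, 9.84%) and 2 by limma-trend with a pseudocount of 0.5 (8.26%) or 0.1 (8.37%). Leaving out 1 library gave 2 to 6 called, with 468 to 3925 of all genes (3.34% to 28.1%). Both highest values were without shNC 3. Of the 10, 2 were called without shNC 1, shCUEDC1 1 or shCUEDC1 2, where 4.93%, 3.66% and 3.34% of all tested genes were. With the replicate number as a block, 3 of the 10 were called and 1117 genes in all (8.08%). CACNA2D1 was then not called (log2 change -0.67, edgeR adjusted p = 0.0715). Libraries with the same number did not deviate together (correlations -0.0146, -0.0465 and -0.0238 across genes). These values show no pairing by number, but cannot settle whether the libraries were prepared in pairs, which is not stated.

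Signs changed without shNC 3 for CACNB3 (-0.0961), CACNA1I (-0.0399) and CACNB2 (0.0102), and without shNC 1 for CACNB2 (0.0259). With 1 library left out the log2 difference ranged from -0.0961 to 0.103 for CACNB3, from -0.0399 to 0.324 for CACNA1I and from -0.350 to 0.0259 for CACNB2. The difference in the CACNA2D1 share of the alpha2delta TPM was 0.888 percentage points with all libraries and ranged from -1.47 (without shCUEDC1 3) to 3.41 with 1 library left out, and was -0.778 without shNC 3. The CACNB4 share of the beta class differed by 11.9 percentage points by TPM, by 17.2 by counts without length scaling and by 10.7 to 13.8 with 1 library left out, while the CACNA1H share differed by 0.585 (without shNC 3) to 3.98 and the CACNG4 share by -1.12 to -0.443. The count of genes whose groups do not overlap was 4324 (2173 higher, 2151 lower) by TMM-normalised CPM and 4242 (1678 higher, 2564 lower) by deposited TPM, and 5163 to 7214 with 1 library left out. The same 7 of the 10 did not overlap under both scalings. The causes were not tested. CACNG8 and CACNA1I, with at most 38.9 and 72.1 reads per library, had the widest intervals of the 10.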
